A study of Acipenser sturio with 24 samples.

Results

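Late gastrula and early neurula embryos of sturgeon were compared with early gastrula embryos, using 7 of the 24 whole-embryo RNA libraries of a developmental series. The members were chosen by stage label: the early group held Nieuwkoop-Faber (NF) stages 10, 10.5 and 11, and the late group held stages 12, 12.5, 13 and 13.5. NF stages are those of the frog Xenopus, applied here to sturgeon. All embryos were untreated Bester hybrids, a cross between beluga (Huso huso) and sterlet (Acipenser ruthenus), and were kept in 0.1 X MMR, a dilute saline used for frog embryos. The organism field of the labels names a different sturgeon, Acipenser sturio. Each stage has 1 library, with no embryo or clutch number stated. Stages within a window therefore stand in for replicates, and every p-value measures a spread that includes development inside the window. Of the 275906 assembled components in the table, 17033 reached a value of 1 or more in at least 3 of the 7 libraries and were tested.

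Gastrulation moves the outer cells of the ball-shaped blastula inward and sets up ectoderm, mesoderm and endoderm. During neurulation the dorsal ectoderm thickens into the neural plate and folds into the neural tube. RNAs stored in the egg support the first divisions, and the embryo's own genome is switched on before gastrulation in Xenopus. A component is a group of transcripts assembled from the reads, close to a gene in meaning. The files do not pair component identifiers with gene names, so no gene is named, no marker gene could be read against the stage labels, and 4 components are identified by their numbers.

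The libraries differ in ways that touch the results. Deposited values are abundances on an unstated normalized scale, with totals from 342953 at stage 12.5 to 452570 at stage 10. Absolute read depth is unknown. Reads per unit of value, estimated from the steps of low values and set to 1 at stage 12, were at most 1.85 in the early libraries, 2.79 at stage 12.5, 2.08 at stage 13 and 2.66 at stage 13.5. Of the 21 library pairs behind this estimate, 17 lay within 0.1 (log2) of it. Stage 12 was thus the shallowest library per unit and the 3 libraries after it were the deepest, and the part of depth in changes near a value of 1 was not tested. Stage 13 also stood apart: 88 components at 5 or more at stages 12.5 and 13.5 were at least 4-fold lower there in deposited values, and calls are given with and without it. In whole embryos, fewer cells of a type and less RNA per cell cannot be told apart.

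Of 17033 components, 346 passed the threshold (2.03%, limma with Benjamini-Hochberg adjustment, threshold 0.05), of which 324 rose (1.9%) in late gastrula and early neurula and 22 fell (0.129%). The filter was uneven between directions: 1622 components passed it through the late libraries alone and 491 through the early ones alone. Of the 324 rises, 245 came from the former, and of the 22 falls, 8 came from the latter. Admission through 1 group alone favours a change in that direction, though it does not by itself make a call. These calls are therefore not independent of the filter. Among rises the log2 change had a median of 2.46, with 0.395 as the median SE. Among falls the median was -1.48, with 0.268 as the median SE, and over all tested components it was 0.08. Changes are on the log2(scaled value + 1) scale, which understates the change of low components and gives no bound where the early libraries are listed at 0. A change of at least 4-fold on this scale was reached by 231 of the components that rose and by none of the 22 that fell. These 2 counts hold for the main scaling, the median of ratios. Deposited values of the groups did not overlap for 342 of the 346, while 4240 of all tested components (24.9%) had non-overlapping groups.

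The size of the falling group depended on scaling and the number of calls on stage 12. Scaled to column totals, 443 components rose and 142 fell, with a median over all components of -0.22. With values as deposited, 525 rose and 345 fell, with a median of -0.32. The share of calls that rose thus went from 93.6% to 75.7% and 60.3%. Falls of at least 4-fold occurred under both of these scalings and were not counted. With column totals comp193884_c0 had a log2 change of -2.14 and comp270314_c0 one of -2.31. With values as deposited they had -2.21 and -2.44. Leaving out stage 12 gave 2493 calls, and leaving out stages 10, 10.5, 11, 12.5, 13 or 13.5 gave 40, 32, 64, 112, 217 and 91. Passing in every one of these 7 fits were 31 components, all of which rose. The fits without stage 10.5 and without stage 13.5 called 0 falls under the main scaling, so no fall could pass all 7. These 2 fits called 1 and 51 falls with column totals, and 10 and 156 with values as deposited.

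**Figure D1:**
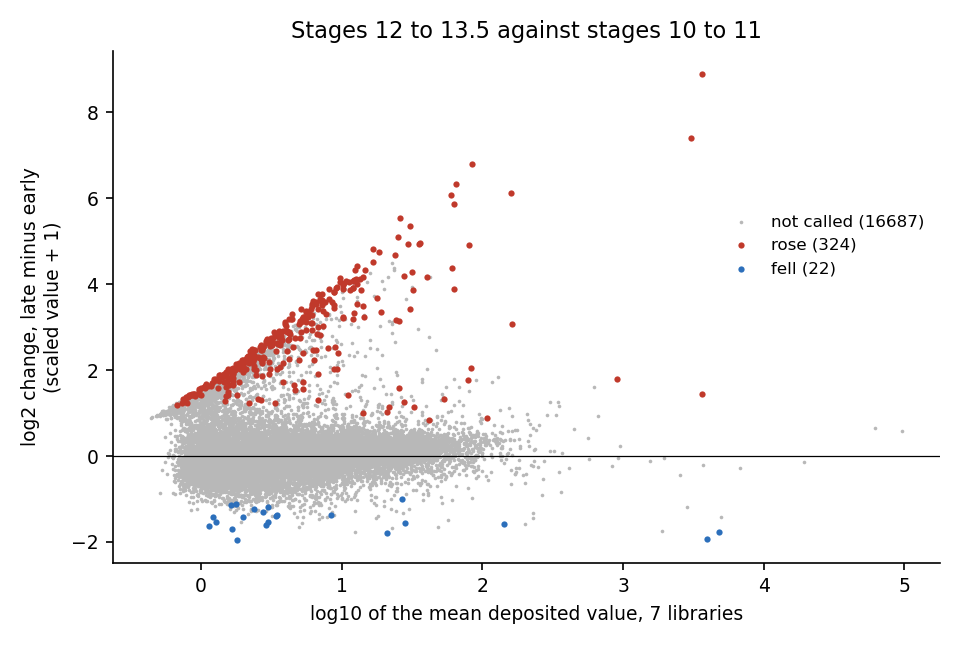
Log2 change (late minus early, scaled value + 1) against the log10 mean deposited value of the 7 libraries, 1 point per tested component. The 324 components that rose reach a log2 change of 8.89, the 22 that fell reach -1.94, and 142 or 345 fell under the other scalings named in the text.

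The component with the highest change was comp267037_c0. It stood at 6.61, 14.7 and 45.9 at stages 10, 10.5 and 11 and at 4064, 5954, 8749 and 6462 at stages 12, 12.5, 13 and 13.5. All 4 late libraries lay far above all 3 early ones, and the early values were themselves higher at each later stage. The group means were 22.4 ± 20.8 (SD, n = 3) and 6307 ± 1927 (SD, n = 4). The late libraries were higher by 8.89 on the log2 scale (SE 0.587, limma adjusted p = 0.000383). The component passed in every fit that left out 1 library, with adjusted p from 1.44e-05 to 0.0075. Outside the window it had stayed between 1.96 and 8.88 at stages 0 to 9. Stages 15 and 16 still had 4155 and 3713, stage 18 had 409, and by stage 36 the value was 6.08. By its mean over the 7 libraries it was among the 10 most abundant components.

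The second component, comp261669_c2, was high from the same stage on and later stayed above its early values, at a lower level. Its values were 22.3, 44.0 and 77.9 in the early libraries and 4570, 5529, 6370 and 4788 in the late ones, again with no overlap. The means were 48.1 ± 28.0 (SD, n = 3) and 5314 ± 815 (SD, n = 4), and the change was 7.41 on the log2 scale (SE 0.423, limma adjusted p = 0.000383). Later it had 2936 (stage 15) and 949 (stage 36), and the lowest value between these was 737 (stage 29). Both components lose the call when stage 12 is counted with the early libraries (limma adjusted p = 0.0894 and 0.102).

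**Figure D2:**
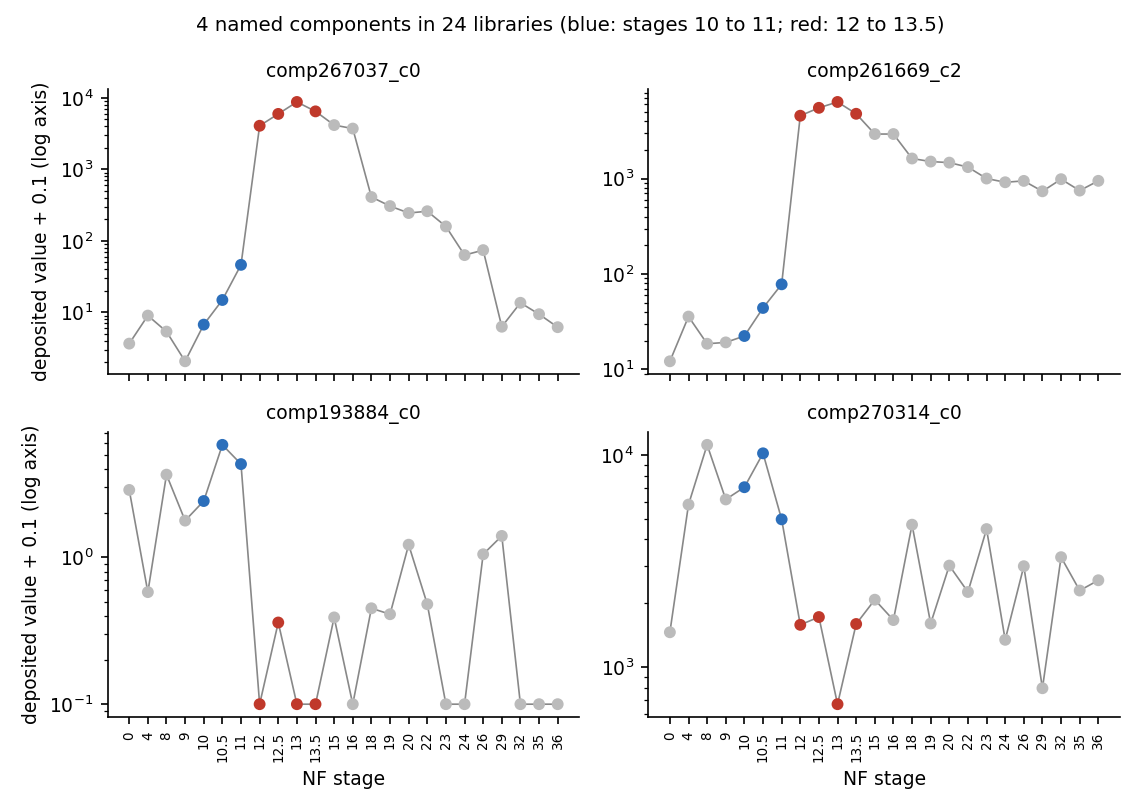
Deposited value + 0.1 on a log axis for the 4 named components in each of 24 libraries, with stages 10 to 11 in blue and 12 to 13.5 in red. comp267037_c0 rises from 45.9 at stage 11 to 4064 at stage 12 and falls to 6.08 at stage 36, while comp261669_c2 still stands at 949 there.

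Components that rose were mostly scarce in the early libraries and modest in level after. The median of their early means was 0.152 and that of their late means 6.13. The early mean was under 1 for 266 of 324, and 93 were listed at 0 in all 3 early libraries. The late mean reached 10 in 113, 100 in 16 and 1000 in 4. Among the 231 above 0 in an early library the median log2 change was 2.59. A value of 1 or more in an early library was seen for 79. Restricting the test to components at 1 or more in all 7 libraries left 17 calls among 9515, all of which rose.

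The 16 abundant components that rose differed in what followed. The third by log2 change stood at 0.24, 0.23 and 0.62 in the early libraries and at 101, 63.0, 301 and 128 in the late ones. It then stayed between 16.3 and 154 up to stage 36. The fourth by change went from 0.38, 0 and 0.59 to 44.1, 165, 37.4 and 208, then stood at 7.75 at stage 18 and 0.80 at stage 36. A different course was that of the sixth by change, which rose from 0.45, 0.68 and 1.17 to 43.6, 112, 113 and 145. It went on to 281 at stage 15 and 700 at stage 20, and was at 340 at stage 36. Of the 16, the tailbud mean (stages 22 to 36) was below the late-window mean in 9 and above it in 7, in deposited values without scaling. Scaling factors over all 24 libraries were 0.688 to 1.02 in the late window and 0.975 to 1.47 in the tailbud. Scaling would mostly lower tailbud values relative to late ones, and the split was not made on scaled values.

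Not all rises started from near 0. The most abundant component with a moderate rise had 2002, 2100 and 3033 in the early libraries and 4243, 3166, 4844 and 6250 in the late ones, with groups that came close but did not overlap (log2 change 1.45, SE 0.285, limma adjusted p = 0.041). Another rose from 496, 486 and 462 to 1033, 1127, 847 and 1941 (log2 change 1.79, SE 0.302, adjusted p = 0.0244). One more rose from 4.37, 3.63 and 4.20 to 31.4, 125, 161 and 232 and later stood at 911 (stage 20) and 863 (stage 36). The examples without a number were chosen after their values were seen.

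The 22 components that fell were at 1 or more in every early library, and 14, 8, 8 and 10 of them were so at stages 12, 12.5, 13 and 13.5. Their early means had a median of 5.60 and their late means one of 0.928, and the deposited groups overlapped in none of them. Of the 22, 1 was listed at 0 in all 4 late libraries. Of the 275906 components in the whole table, 1 was at 1 or more in all 3 early libraries and at 0 in all 4 late ones. The opposite pattern, 0 in all 3 early and 1 or more in all 4 late libraries, was seen for 83. The 2 patterns ask for different numbers of zeros, and zeros were unevenly spread. Of all tested components, 1069 to 1193 were listed at 0 in the early libraries and 899 at stage 12. Stages 12.5, 13 and 13.5 had 79, 340 and 54. The part of depth in these 2 counts was not tested.

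The falls named by the rule were comp193884_c0, a scarce component, and the abundant comp270314_c0, whose changes differed by less than their SE. Their order turned under the other 3 scalings. The scarce one stood at 2.32, 5.74 and 4.22 in the early libraries and was listed at 0, 0.26, 0 and 0 in the late ones. The log2 change on the value + 1 scale was -1.94 (SE 0.309, limma adjusted p = 0.0194). It was -2.66 with a pseudocount of 0.5 and -4.44 with one of 0.1. The call was lost without stage 10.5, 11 or 13.5 (limma adjusted p = 0.119, 0.108 and 0.0707).

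The other, comp270314_c0, was among the most abundant of the embryo. Its values were 7046, 10181 and 4971 at stages 10, 10.5 and 11 and 1581, 1720, 668 and 1595 at stages 12 to 13.5. Stage 10.5 was the highest and stage 13 the lowest. The means were 7399 ± 2623 (SD, n = 3) and 1391 ± 486 (SD, n = 4), and the change was -1.94 on the log2 scale (SE 0.401, limma adjusted p = 0.0465). The call held under the 4 scalings. With a library left out it held in 1 of 7 fits, that without stage 12 (adjusted p = 0.0142), and adjusted p was 0.0536 to 0.237 in the others. Stage 8 had 11159 and stage 18 had 4690, so its level moved up and down outside the window as well.

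The 7 components that fell from an early mean of 10 or more did not all follow the same course. The most abundant had 9375, 12175 and 5131 in the early libraries and 2419, 1563, 1181 and 2036 in the late ones, with 6123 at stage 18. A less abundant one went from 278, 367 and 124 to 58.5, 53.4, 44.8 and 63.2, with 156 at stage 18. Another went from 51.5, 77.9 and 24.9 to 11.5, 8.70, 10.2 and 12.4, with 29.9 at stage 18. Within the window all 3 were highest at stage 10.5 and lowest at stage 12.5 or 13, and at stage 18 they lay above their late means. In contrast, the fifth had 45.9, 40.2 and 40.9 in the early libraries, a late mean of 15.2 and 12.5 at stage 18. The seventh had 11.6, 20.0 and 13.0, a late mean of 3.54 and 2.59 at stage 18. These 22 components together held 3.74%, 5.39% and 2.71% of the summed value in the early libraries and 0.469% to 1.04% in the late ones. Nearly all of it lay in the 2 most abundant, and the others held 0.109% at stage 10 and 0.0210% at stage 13. The 324 that rose held 0.685% to 1.08% in the early libraries, 4.27% at stage 12 and 6.05% to 6.76% at stages 12.5 to 13.5. Most of that lay in the 4 most abundant, with 3.52% at stage 12 and 4.60% to 5.07% after it, while the others held 0.113% to 0.136% early, 0.747% at stage 12 and 1.25% to 1.69% after it. Since these shares use the values that chose the components, they describe and do not test them.

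Among neighbouring libraries the step from stage 12 to 12.5 had the most components that differed. A 4-fold difference or more was seen for 24 components between stages 10 and 10.5 and for 22 between stages 10.5 and 11. The next step, to stage 12, had 130 higher and 16 lower, and that to stage 12.5 had 630 higher and 25 lower. Stage 13 had 50 higher and 245 lower than stage 12.5, and stage 13.5 had 244 higher and 40 lower than stage 13. Among the 7055 components at 5 or more in at least 3 libraries, 74 were higher and 1 lower at stage 12, and 226 were higher and 8 lower at stage 12.5. Between stages 12.5 and 13.5, passing over stage 13, 27 components differed. The Spearman correlation across components, a description of these libraries, was 0.917 to 0.931 between early libraries and 0.868 to 0.892 between those and stage 12. Between early libraries and stages 12.5 or 13.5 it was 0.692 to 0.741, and between early libraries and stage 13 it was 0.660 to 0.712. These pairs are single libraries, so their differences have no replicate check. Stage 12 had the fewest reads per unit (1) and stage 12.5 the most (2.79), with scaling factors of 1.08 and 0.697. The 4-fold counts were made under the main scaling only. The part of depth and scaling in them, and of depth in the correlations, was not tested.

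**Figure D3:**
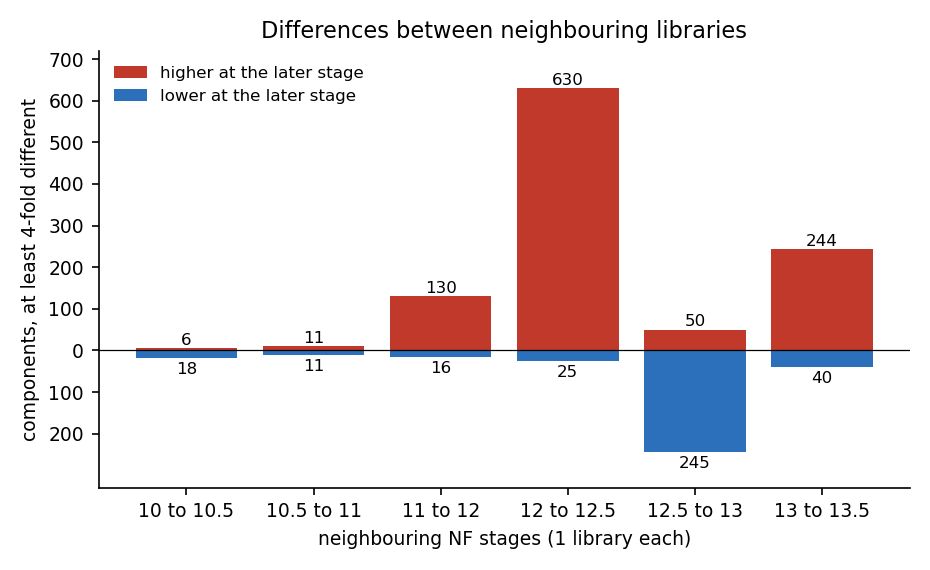
Number of tested components that differ at least 4-fold (scaled value + 1) between neighbouring libraries, higher at the later stage above the line and lower below it. The step from stage 12 to 12.5 has 630 higher, and stage 13 has 245 lower than stage 12.5. At stage 13.5, 244 are higher than at stage 13. The part of depth and scaling in these counts was not tested.

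The calls themselves used stage 12 as a late library, so the values of the called sets at stage 12 describe that choice and give no timing. Of the 324 components that rose, 171 had their largest step from stage 11 to 12 and 142 from stage 12 to 12.5. At stage 12, 310 of the 324 had a value of 1 or more, against 56 to 68 in the early libraries. Their median deposited value was 0.02 to 0.12 in the early libraries, 3.06 at stage 12, and 6.29 to 7.74 at stages 12.5 to 13.5. Of the 22 that fell, 17 had their largest drop from stage 11 to 12 and none from stage 12 to 12.5.

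Among components called without stage 12, that library lay near the early libraries for most that rose. The filter still used all 7 libraries. Early gastrula was compared with stages 12.5, 13 and 13.5 alone, which gave 2198 components that rose (12.9%) and 295 that fell (1.73%), all 346 first calls among them. The balance of directions depended on scaling. Column totals gave 1913 that rose and 1708 that fell, and values as deposited gave 1856 and 2555. The position of stage 12 was then read on the scale on which the early mean is 0 and the late mean is 1. Among components that rose its median position was 0.11 (quartiles 0.00 and 0.35), with 1445 of 2198 (65.7%) under 0.25 and 145 (6.60%) at 0.75 or more. Outside the early range in the direction of the change were 1144 (52.0%). Among components that fell the median position was 0.49 (quartiles 0.20 and 0.78), with 82 of 295 (27.8%) under 0.25 and 77 (26.1%) at 0.75 or more. The difference between these positions was not tested, and scaled to column totals the median for components that fell was 0.33, over 1708 of them. Stage 12 also had the fewest reads per unit, and the part of depth in its position was not tested. Of the 2198, 1556 had passed the filter through late libraries alone.

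**Figure D4:**
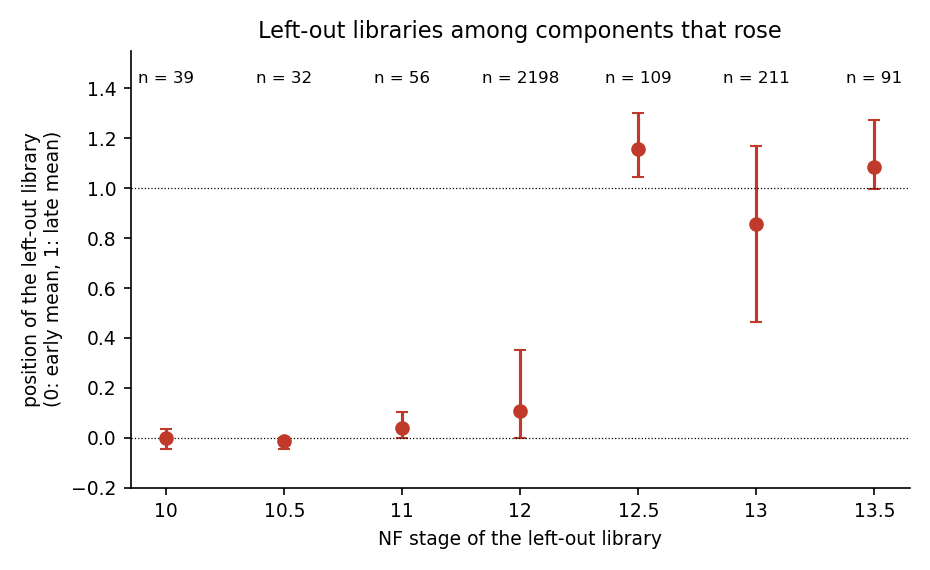
Median position of each library, with quartiles as bars, among the components that rose in the fit without that library (0 is the mean of the remaining early and 1 that of the remaining late libraries). Stage 12 lies at 0.11 over 2198 components, and stage 13 has the widest bar, from 0.46 to 1.17. Stages 10, 10.5 and 11 lie between -0.01 and 0.04, over 39, 32 and 56 components. Each position has its own set of components, and the sets of stages 10 to 11 were called with stage 12 as a late library. The positions are thus not measured on the same components.

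Within the 7 libraries, the rising components of the broader set held their lowest share of the summed value in the early ones. All of these libraries but stage 12 chose the set, so its shares, counts and steps describe it and do not test it. Its 2198 rising components held 2.60% to 3.26% of the summed value in the early libraries, 6.62% at stage 12 and 10.6% to 12.8% after that. The number of them at 1 or more was 494 to 536 in the early libraries, 892 at stage 12 and 2146 to 2194 after it. The largest step was from stage 12 to 12.5 in 1730 of them (78.7%). Of the 295 that fell, 101 had the largest drop from stage 11 to 12, 95 from stage 12 to 12.5, 47 from stage 12.5 to 13 and 39 already from stage 10.5 to 11. They held 5.98% to 12.0% of the summed value in the early libraries, 3.17% at stage 12 and 1.46% to 2.56% after it.

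The 88 components low at stage 13 had a median of 11.9 before it, 0.99 in it and 15.4 after it. By the same count, each of the other 6 libraries had 0 to 2 such components. In other libraries they were low again at stages 0, 16, 19, 24, 29 and 36, with medians from 0.705 to 3.02, and stood between 5.88 and 18.3 at the remaining stages. The labels record no batch that divides these libraries. Of the 82 that were tested, 4 (4.88%) were among the components that rose, against 1.9% of all tested, and none among those that fell. Without stage 13 there were 217 calls in place of 346, of which 211 rose, and without stages 12 and 13 there were 2687.

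An abundant component with this pattern was the fifth by log2 change. Its values were 0.35, 1.39 and 6.02 in the early libraries and 405, 545, 16.6 and 152 in the late ones. At stages 15, 16, 18 and 19 it had 266, 18.4, 172 and 19.4, low again where the 88 were low. In all, 34 of the 324 (10.5%) were at least 2-fold lower at stage 13 than at both neighbours, against 5.55% of all tested components. At least 2-fold higher than both were 7 (2.16%), a share near the 2.26% of all tested.

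The same components were then followed in libraries that had no part in the calls. Stages 15 to 20 (mid and late neurula, 5 libraries) were compared with stages 0 to 9 (egg to blastula, 4 libraries) over the same 17033 components. This comparison called 9280 components (54.5%), 4639 that rose (27.2%) and 4641 that fell (27.2%). Of the 324 that rose between the windows, 305 (94.1%) also rose here and none fell, with a median log2 change of 2.56 against -0.07 over all components. The way a component passed the filter moved with this. Of the 245 admitted through the late libraries alone, 93.9% rose here, near the 92.5% of all 1622 admitted that way. Of the 79 at 1 or more in an early library, 75 (94.9%) rose, against 20.4% of all 15411 such components. Of the 22 that fell, 9 (40.9%) also fell here and none rose. Among these, 3 of the 8 admitted through the early libraries alone fell (37.5%), near the 36.5% of all admitted that way, and 6 of the other 14 fell (42.9%), against 29.9% of all at 1 or more in both groups. Without stages 0, 16 and 19, where the 88 components were also low, 291 of the 324 (89.8%) rose and 8 of the 22 (36.4%) fell, against 25.2% and 23.5% of all components. Scaled to column totals the whole comparison called 3138 components up (18.4%) and 7873 down (46.2%). Of the 324 it then called 291 up (89.8%) and 1 down, and of the 22 it called 17 down (77.3%).

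The larger set was followed in the same way. Of the 2198 components that rose without stage 12, 2033 (92.5%) rose from the egg-to-blastula to the neurula libraries and 6 fell. Of its 1556 admitted through the late libraries alone 94.2% rose, near the 92.5% of all so admitted, and of the other 642, 567 (88.3%) rose, against 20.4%. Of the 295 that fell, 178 (60.3%) fell and 6 rose. Those admitted through the early libraries alone fell in 25 of 61 (41.0%), against 36.5% of all so admitted, and the others in 153 of 234 (65.4%), against 29.9%.

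**Figure D5:**
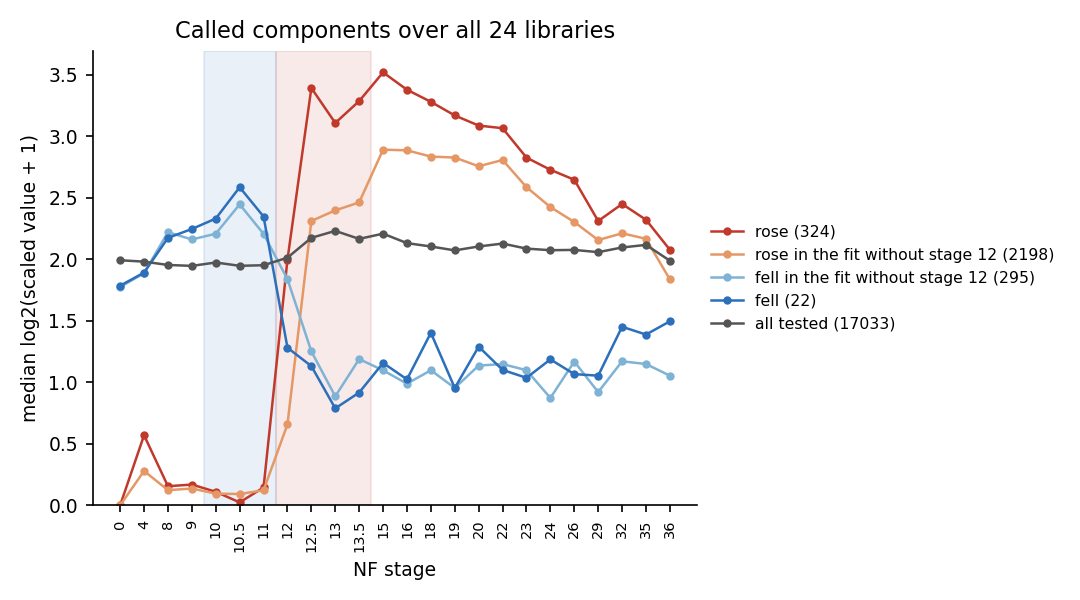
Median log2(scaled value + 1) of the called sets in each of 24 libraries (scaled over all 24), with stages 10 to 11 shaded blue and 12 to 13.5 shaded red. The components that rose lie at 0.02 to 0.14 in the early libraries, peak at 3.52 at stage 15 and lie at 2.08 at stage 36, while the median of all tested components stays between 1.95 and 2.23.

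The later levels of the rising components are set beside those of all tested components, with no test of the difference. Late-window values also chose these components. A peak in that window, or a level relative to it, is therefore not independent of the choice, and the part of the choice was not tested. The tailbud mean was within 2-fold of the late-window mean in 135 of 324 (41.7%), against 66.0% of all tested components. It was at least 2-fold lower in 120 (37.0%, against 19.4%) and at least 2-fold higher in 69 (21.3%, against 14.6%). At least 4-fold lower were 45 (13.9%, against 4.11%) and at least 4-fold higher 27 (8.33%, against 4.44%). The highest of 6 window means lay in the late gastrula-early neurula window for 149 (46.0%), in stages 15 to 20 for 130 (40.1%), in the tailbud for 44 (13.6%) and at stages 0 to 4 for 1. Over all tested components these windows had 13.3%, 22.2%, 20.5% and 20.4%. In the broader set of 2198 the highest mean lay in stages 15 to 20 for 1240 (56.4%) and in the late window for 565 (25.7%). Of the 22 that fell, none had a neurula or tailbud mean at least 2-fold below the late-window mean, against 14.6% and 19.4% of all tested. Within 2-fold of it were 20 and 19, against 71.8% and 66.0%, and the others lay above. On the log2(scaled value + 1) scale used here, a component with a late-window mean under 1 cannot fall 2-fold. The median of the 22 was 1.28, 1.13, 0.788 and 0.917 at stages 12, 12.5, 13 and 13.5. Many of them thus could not reach the lower class, and the shares of all tested components are no fair measure for them.

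Few rising components were measured throughout the stages before gastrulation. From stage 0 to 9, 45 of the 324 (13.9%) never lay under 1, against 67.8% of all tested components. Under 0.5 in all 4 libraries were 129 (39.8%, against 6.75%), and listed at 0 in all were 54 (16.7%, against 2.78%). Of the 324, 245 had passed the filter through the late libraries alone, against 1622 of all 17033 tested. These shares were not split by that route, and the part of the filter in them was not tested. At stage 4, 124 of the 324 had a value of 1 or more (38.3%), against 64 at stage 0 (19.8%) and 71 at stage 8 (21.9%). Over all tested components these shares were 81.1%, 75.5% and 82.5%. In the whole table, 46032 components were at 0.1 or more at stage 4, against 29370 at stage 0 and 34576 at stage 8. The part of this single library in the higher count at stage 4 was not tested. Among the 22 that fell, 15 (68.2%) never lay under 1 in those libraries, near the share of all tested components. Their median deposited value went from 2.81 in the stage 0 egg to 4.35 in the blastula of stage 8. It was 6.13 by stage 10.5 and 0.60 by stage 13.

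Calls came from components of all levels. With a mean of 100 or more over the 7 libraries, 10 of 144 components were called (6.94%), 7 up and 3 down. The share was 1.73% among 3747 components from 10 to 100, 2.51% among 7081 from 2 to 10 and 1.53% among 6061 under 2. The 346 calls carried 337 different assembly numbers, and the 14 that shared a number with another called component had the same direction as it. Components with the same number come from 1 assembly cluster and can share reads, so they are not independent.

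Counts of measured components overlapped between the groups at a value of 1 and not at 5. The number of components at 1 or more was 16281 ± 579 (SD, n = 3) in the early and 15947 ± 1427 (SD, n = 4) in the late libraries (two-sided exact permutation p = 0.629). At 5 or more, the means were 6981 ± 400 (SD, n = 3) and 6139 ± 610 (SD, n = 4), with every early library above every late one, and the exact permutation p of 0.0571 was the smallest that 3 against 4 libraries allow. These counts use deposited values without scaling. The scaling factors were 1.16 to 1.35 in the early and 0.697 to 1.08 in the late libraries, so a fixed cutoff is stricter in the late ones. Counts on scaled values were not made. The 10 most abundant components held 53.1% ± 1.45 (SD, n = 3) and 54.8% ± 2.53 (SD, n = 4) of the summed value (exact permutation p = 0.4). The most abundant component stood at 87756 to 99699 in the early and 88124 to 103626 in the late libraries, and was not called (limma adjusted p = 0.272).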

How the data were processed

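Total RNA of whole embryos was freed of rRNA and made into libraries, per the labels' protocols. Per the submitters' processing notes, CASAVA 1.8.2, Trimmomatic, Bowtie and RSEM were used. The table deposited by the authors holds a normalized abundance signal per assembled component. It is not a table of counts (0.458% of values above 0 are whole numbers, tolerance 0.0001), and the assembler and the scale are not given in the sources used here. All 24 columns were mapped by their labels (0 unmapped).

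Libraries were scaled by the median of ratios over 20775 components above 0 in all 7 (factors 0.697 at stage 12.5 to 1.35 at stage 10) and tested with limma 3.58.1 in R 4.3.3 on log2(scaled value + 1), with trend and robust variances and Benjamini-Hochberg adjustment over 17033 components. Column totals, values as deposited and an unweighted trimmed mean of log ratios were the other scalings. Single values were tested with exact permutation tests in SciPy 1.17.1 over 35 divisions. The fits were also run on simulated data with independent noise per library. Those data held no course of development inside a window and no difference in depth. They therefore do not show how the fits behave with either. The comparison, its filter and the tests were chosen with earlier results of these data known. The named components are the 2 highest and 2 lowest log2 changes among calls without overlap that also passed in every fit with a library left out. No component that fell did so, and for these that condition was dropped as the rule provides. Lists of gastrula and neural genes could not be tested, since components carry no gene names.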

Additional observations from a re-analysis of the deposited data

Results flagged for a closer look

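Of 9 measures looked at in the 4 late libraries, 2 had a library set apart from the other 3 by its gap relative to the range, where chance gives about 1 in 20. The value of comp270314_c0 at stage 13 was 668, against 1581 to 1720 at stages 12, 12.5 and 13.5. The value of comp193884_c0 at stage 12.5 was 0.26, with the other 3 libraries listed at 0. Beside 3 equal values this rule lists any differing value, whatever its size, so the rate of 1 in 20 does not apply to it.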

How the results depend on the processing

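The count of 346 calls depended on scaling, filter and libraries. It was 585 when scaled to column totals, 870 with values as deposited, 727 with a pseudocount of 0.1, 522 with 0.5, 123 at 5 or more in at least 3 libraries, 17 at 1 or more in all 7, 2368 with stage 12 counted as early gastrula, 1938 with all 24 libraries in the fit and 44 with a minimum fold of 2. The filter at 5 or more tested 7055 components, and that at 1 or more in all 7 tested 9515. The latter cannot hold the 245 rises that had passed the main filter through the late libraries alone. The cause of the changes in count was not tested. The other 4 settings stayed within 1.5 times, and leaving out 1 library gave 32 to 2493. Without stages 12 and 13 together, a choice made after seeing the data, it was 2687. Rises outnumbered falls under each of these settings. With values as deposited and stage 12 left out together, falls outnumbered rises (2555 against 1856). The neurula comparison gave 8103 to 9804 calls with a library left out and stayed within 1.5 times otherwise. The difference in the number of components at 1 or more (late minus early) was -333. It turned to 17717 at a value of 0.1, and ranged from -921 to 177 with a library left out, above 0 only without stage 12.5. That of the top 10 share ranged from 0.455 to 2.48 percentage points. comp267037_c0 and comp261669_c2 kept their call in 13 of 14 other settings, comp193884_c0 in 10 of 12 and comp270314_c0 in 7 of 14, all with the same direction. No paired analysis was possible because the labels give 1 library per stage. Without read depth, little can be said of components near a value of 1.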
